A study of Mus musculus and Homo sapiens with 41 samples.

Results

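The genes encoding the proteins of the cytosolic ribosome were examined in granulocyte-monocyte progenitors (GMPs) and in 416b cells. Members were chosen by their symbols (those starting with Rpl or Rps and followed by a digit, or by p for the stalk genes, without symbols marked as pseudogenes by -ps and without the Rps6k kinases) and were selected on their measured level in GMPs, which had to reach a normalized count of at least 10 in at least 2 of the 4 libraries. Of the 92 symbols that matched in the GMP table, 90 passed, among 20531 genes that passed in all. All 84 matching genes of the 416b table, which lists 13238 genes, were among these 90. They comprise 76 core ribosomal protein genes (46 of the large and 30 of the small subunit), 6 paralogs expressed beside a core gene (Rpl3l, Rpl7l1, Rpl22l1, Rpl36al, Rps4l and Rps27l) and 7 near-identical copies of a core gene (Rpl6l, Rpl32l, Rpl37rt, Rps3a2, Rps3a3, Rps12l1 and Rps27rt). The annotation types 7 of these paralogs and copies as processed pseudogenes, of which Rpl37rt and Rps4l as transcribed ones and the others are Rpl6l, Rpl32l, Rps3a2, Rps3a3 and Rps12l1. The remaining match, Rps19bp1, encodes a protein that binds Rps19 and is not itself a ribosomal protein. Rpl3l was the member nearest to the limit, with 5.97 and 19.3 normalized counts in WT and 13.4 and 7.03 in Zbtb16 lu/lu. Outside it lay Rpl39l (0.994 and 25.1 in WT, 0 and 2.01 in lu/lu) and Rpl10l (4.97, 1.93, 3.08 and 3.01). The level of a member therefore decided its choice, and levels are given as a description. No member passed through 1 genotype alone.

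The series addresses PLZF, a BTB zinc finger transcription factor encoded by Zbtb16, and its bearing on enhancers in myeloid progenitors. RNA was sequenced from GMPs sorted as lineage-negative, c-Kit+, Sca-1-, Cd34+ and FcγR+ bone marrow cells. These came from irradiated C57BL/6 Cd45-1 hosts that had been reconstituted with bone marrow, either WT or from C57BL/6 Cd45-2 mice homozygous for the Zbtb16 lu (luxoid) mutation, so that both genotypes had passed through transplantation. RNA was also sequenced from 416b cells, a Cd34+ mouse myeloid progenitor line grown in suspension, which carried PLZF-Flag or the Empty vector after lentiviral transduction. There were 2 libraries for each GMP genotype and 1 library for each 416b condition. The labels give 1 sample per genotype. The methods name 3 independent RNA extractions, where the table holds 2 libraries per genotype, and whether these came from separate animals is not stated, so p-values measure only the spread between these libraries. The column names of the GMP libraries hold a string of digits that is read here as a date, which no label states. Only WT library 1 and lu/lu library 1 share theirs, and which step of the work it would date is not given. GMP libraries were made from total RNA depleted of ribosomal RNA, and 416b libraries with an oligo(dT)-primed low-input kit, so no value was tested between the 2 tables.

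The ribosome joins a small subunit, which reads the mRNA, to a large subunit, which forms the peptide bond. Its proteins are needed in near-equal numbers, their mRNAs are among the most abundant of a growing cell, and most of these mRNAs start with a run of pyrimidines through which the mTORC1 pathway sets their translation. In blood formation the loss of 1 copy of several of these genes impairs red cell production, in Diamond-Blackfan anaemia and in the 5q- syndrome.

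The WT libraries held 40170636 and 39984463 reads in genes and the lu/lu libraries 37562999 and 39986791, and their normalized counts summed to between 38562940 and 40130730. In the 416b table the sums were 33000337 in Empty vector and 33041050 in PLZF-Flag, from 54529688 and 19995819 reads. Read numbers were recovered from the step between the low values of a library. Zbtb16 had 705 and 828 normalized counts in WT GMPs and 369 and 269 in lu/lu GMPs. The lu mutation is a point change that creates a premature stop codon, so the level of the transcript is no check of the genotype. Zbtb16 had 382 in Empty vector and 2541 in PLZF-Flag 416b cells. All 12 genes of a list of GMP gate and granule genes (Mpo, Elane, Prtn3, Ctsg and others) were past the filter. Their sums were 756875 and 745689 normalized counts in WT and 856281 and 866099 in lu/lu, with 11 of 12 positive, a median of 0.11 and none past the test. In 416b cells Cd34 (11059 and 8823) and Kit (6434 and 7267) were present, Mpo was at 12.1 and 3.30, and Elane and Gfi1 were not listed. Lists of more mature cells were also examined. Of 17 mature neutrophil genes past the filter, 16 had a positive log2 fold change and none passed the test (median 1.24), and their sums were 24733 and 19364 in WT and 20628 and 34132 in lu/lu. Of 16 monocyte and dendritic cell genes, 16 were positive and none passed (median 0.42), with sums of 70575 and 80225 in WT and 94633 and 103499 in lu/lu. Of 10 genes past the filter on a list named for cells outside the gate, 3 were positive and 7 negative. Their median was -0.35, none passed the test, and all overlapped between genotypes. The list summed to 16956 to 18604 in WT and to 11186 to 16217 in lu/lu. In WT library 1 Prg2, Cpa3 and Mcpt8 held 10394, 3704 and 2402 of the sum of 18604. Whether the cells that express them lay outside the gate was not tested. Of the 15 genes of that list, 4 stayed under 10 in every library (Cd3e, Cd79a and Siglech among them). Of these 3 lists, no gene was at 0 in all 4 libraries, and among single libraries Cd3e was at 0 in WT library 2 and lu/lu library 2, and Mmp9, Fpr1 and Fpr2 were at 0 in WT library 2. The part of these cells in the results below was not tested, and a smaller share of a cell type cannot be told apart from less RNA per cell.

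Ribosomal protein mRNAs made up 2.05% and 2.13% of the normalized counts in WT GMPs and 2.20% and 2.39% in lu/lu GMPs. Both lu/lu libraries lay above both WT libraries. Over 2 libraries each, the mean and SD were 2.09% ± 0.0531 for WT and 2.29% ± 0.134 for lu/lu, a difference of 0.206 percentage points (exact two-sided permutation test, p = 0.3333, the smallest that 2 against 2 libraries allow). Between the libraries of the shared date the shares were 2.05% in WT and 2.20% in lu/lu. In 416b cells the members took 6.17% of the listed counts in Empty vector and 6.25% in PLZF-Flag.

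Levels per kilobase of transcript differed widely between members. In GMPs the 76 core genes ran from 578 normalized counts per kilobase for Rpl38 to 60959 for Rpl8, a range of 105-fold, with a median of 5525 and quartiles of 2163 and 13984. The highest members were Rpl37rt (61572) and Rpl8 (60959), and the 3 lowest were Rpl3l (8.30), Rps12l1 (109) and Rps4l (221). Rpl8 lies near the peptidyl transferase centre of the large subunit. In 416b cells the core genes ran from 199 per kilobase for Rps23 to 127130 for Rpl8. The level per kilobase of Rps20 rests on a gene model that is 3706 bases long, the longest of all members.

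This spread went with how much of a transcript is found again elsewhere in the genome. Processed pseudogenes copy many of these mRNAs, and the column names of the GMP table mark its values as made from uniquely mapped reads. For each gene model the share of 100-base windows with an exact second match on GRCm38 was counted for GMPs, and of 61-base windows for 416b cells, which are the read lengths of the study. Across the 76 core genes the log2 level per kilobase and this share had a Pearson correlation of -0.62 (Spearman -0.61) in GMPs and of -0.47 (Spearman -0.48) in 416b cells, as a description over genes that share libraries and are not independent. The 8 core genes with under 10% of their 100-base windows repeated (among them Rpl4, Rpl8, Rpl13a, Rpl22, Rpl32, Rps3 and Rps20) had a median of 36046 per kilobase in GMPs and 73630.5 in 416b cells. Among the 8, Rps20 was the lowest in GMPs, at 4646. The 37 genes with at least 50% repeated had medians of 3838 and 11725. The order of core genes by level per kilobase was partly shared between GMPs and 416b cells (Pearson 0.63, Spearman 0.70, 76 genes). A level is thus not read here as the number of mRNA molecules.

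**Figure D1:**
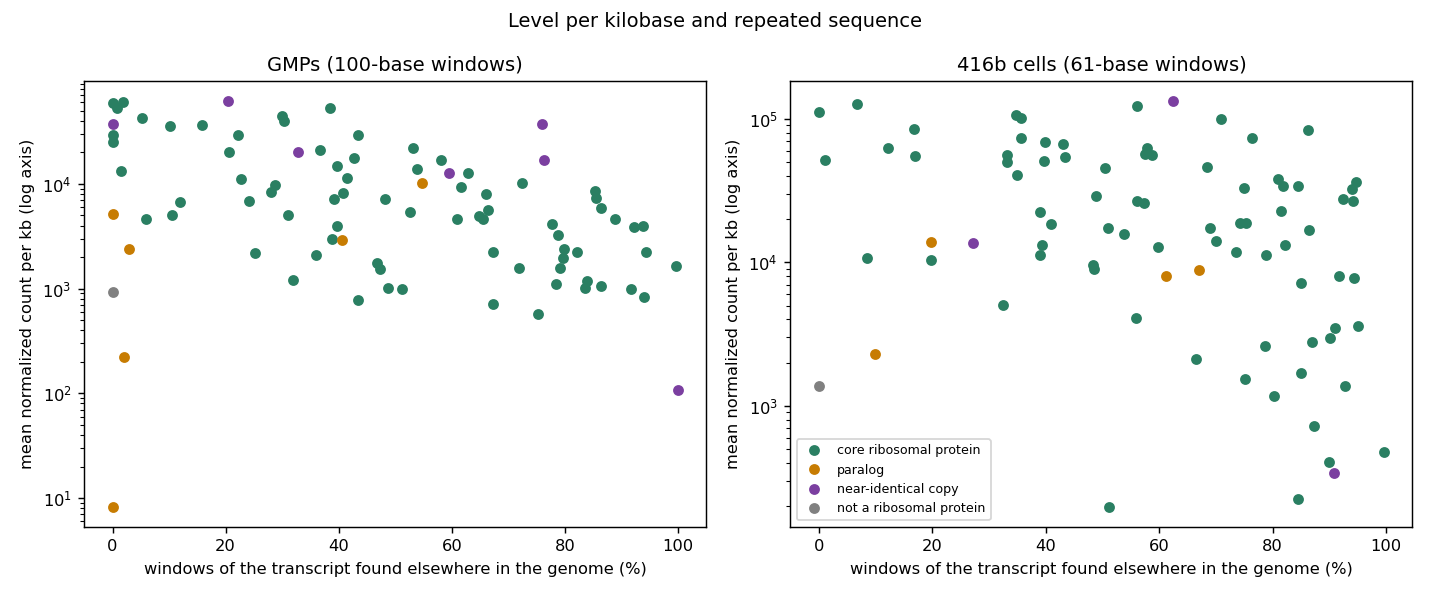
Level per kilobase (mean normalized count of the libraries per kilobase of transcript, log axis) against the percentage of transcript windows found elsewhere in the genome, for GMPs (left, 90 members) and 416b cells (right, 84 members), 1 point per gene. The 8 core genes with under 10% of 100-base windows repeated had a median of 36046 in GMPs, with Rps20 well under the others at 4646, and those with 50% or more repeated had a median of 3838.

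The copies share most of their sequence with a core gene. Rps27, a small subunit protein with a zinc finger, and its intronless copy Rps27rt are identical over 341 aligned bases. In GMPs Rps27 had 526 and 556 normalized counts in WT and 625 and 577 in lu/lu, against 12480 and 14590 (WT) and 13231 and 15360 (lu/lu) for Rps27rt. The copy thus held 95.5% to 96.4% of their sum in GMPs, where it held 44.1% and 42.7% in 416b cells, from 261 and 325 normalized counts in all. Rpl37 and Rpl37rt match in 293 of 294 aligned bases, and Rpl37rt held 90.1% to 91.6% of their sum in GMPs and 90.7% and 89.8% in 416b cells. Rps3a1, Rps3a2 and Rps3a3 had near-equal values in GMPs, as in WT library 1 with 11586, 11654 and 13634. Rpl6l (98.7% identical to Rpl6) held 46.1% to 53.6% of the sum with Rpl6, and Rps12l1 (399 of 399 bases identical to Rps12) held 1.02% to 2.64% of the sum with Rps12. How reads were divided between such genes is uncertain, and the value of a copy or of its parent alone is given with that limit. As sums, the log2 fold change of lu/lu against WT was 0.082 for Rps27 with Rps27rt, 0.22 for Rpl37 with Rpl37rt, 0.16 for Rpl32 with Rpl32l, 0.082 for Rpl6 with Rpl6l, 0.079 for Rps12 with Rps12l1, -0.0044 for Rps3a1 with Rps3a2 and 0.027 for Rps3a1 with Rps3a3.

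A run of pyrimidines near the start was more frequent among members than among all genes. Transcription starts of RefSeq on GRCm38.p6 were matched for 65 of the 90 members, and in 27 of them (41.5%) the stretch from 20 bases before to 40 bases after a start held a pyrimidine run on the sense strand, searched as CTTTCC, as CTTTTC and also as CTTTCT. The same letters were found for 8.57% of all 27025 genes with such starts and for 7.89% of the genes past the filter in GMPs. The letters of an ETS-type site, CCGGAAGT or ACTTCCGG on the other strand, stood within the 300 bases around the start in 11 of the 65 (16.9%), against 4.31% of all genes and 8.69% of those past the filter. These motifs were chosen after the sequences were seen, and a match is a description of letters. The stretches below show this run, in capitals, for 6 members that hold it and are described in the comparisons. Rps7 was separate between the genotypes, while the values of Rpl12, Rpl28 and Rps10 overlapped. Rplp0, Rplp2 and Rps26 held none of the searched letters near the start, and Rplp1 and Rpl36 had no matched start. Other runs of pyrimidines were not searched, so a gene without these letters may still have a run. Rps27 and Rps27rt are shown because they tell a parent from its copy. They lie at chr2:32961704-32961729 (+), chr7:4792957-4792982 (+), chr12:28635913-28635938 (-), chr17:27635225-27635250 (-), chr3:90213632-90213657 (-) and chr9:114982724-114982749 (-) of GRCm38.p6, in this order.
Rpl12: caggatccgtCTTTTCggctttcggc
Rpl28: tcgtgtctctCTTTCCgtctccggcc
Rps7: gtccccacctCTTTTCttccgccacc
Rps10: acgccccttcCTTTCCagcctccgcc
Rps27: gctttcgctcCTTTCCggcggtgacg
Rps27rt: ttatcccttgCTTTCCggcggtgacg
The last 16 letters of the Rps27 and Rps27rt stretches, from the capitals on, are the same. Of the 10 letters before them 3 match, so the shared letters begin at the pyrimidine run.

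The comparison of lu/lu with WT GMPs asked which members differ where PLZF is mutated. Core ribosomal protein genes had mostly higher values in lu/lu, by small amounts: 66 of 76 had a positive log2 fold change, with a median of 0.14 (quartiles 0.038 and 0.25), where the median of all 20531 genes tested was -0.0063. The highest were Rpl36 of the large subunit and the stalk gene Rplp1, and the lowest core genes were Rpl39, Rpl23 and Rpl7. The small subunit genes had a median of 0.14, with 28 of 30 positive, and the large subunit genes a median of 0.14, with 38 of 46 positive. The median of all 90 members was 0.11, with 72 positive.

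With limma on log2(normalized count + 1), 0 of 90 members passed an adjusted p of 0.08, the false discovery rate of the study, and 0 of 20531 genes did (0%). At an unadjusted p under 0.05 there were 12 members and 2028 genes. The lowest adjusted p of a member was 0.370 (limma), for Rplp1 and Rps26. Without WT library 1 the fit called 30 members (33.3%; 27 higher and 3 lower) and 4662 genes (22.7%), and without WT library 2 it called 8 members (8.89%; 6 higher and 2 lower) and 2749 genes (13.4%). In these fits the lone library is assumed to vary like the others and the spread comes from the lu/lu pair. No member was called without lu/lu library 1, where 64 genes (0.312%) were, or without lu/lu library 2, where 1 gene was.

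The libraries of the genotypes did not overlap for 39 members. Both lu/lu libraries lay above both WT libraries for 37 of 90 members (41.1%), where 21.7% of all genes tested did so, and below for 2 (2.22%; Rpl7l1 and Rpl27a), where 22.1% of all genes did so. Among 8906 other genes with mean values in the range that holds the middle 80% of members (628 to 24208 normalized counts), 18.9% lay above and 30.2% below. The members share their 4 libraries with each other, so that these counts are not 90 independent observations.

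The libraries of a genotype also differed. WT library 1 was higher than WT library 2 in 49 of 76 core genes (median log2 difference 0.073), and lu/lu library 2 was higher than lu/lu library 1 in 60 of 76 (median 0.14). Between the libraries of the shared date the median difference of lu/lu from WT was 0.049 over the core genes, with 50 of 76 positive, and -0.0046 over all genes tested. For 16 of the 37 members that lay above, the difference at the shared date was under 50% of the log2 fold change. Across the core genes the log2 fold change had a Pearson correlation of 0.44 (Spearman 0.42) with the GC content of the transcript, of -0.17 with its length and of -0.028 with the mean level, each over 76 genes and on log2 scales for length and level. The part of dates and of GC content in the differences was not tested.

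**Figure D2:**
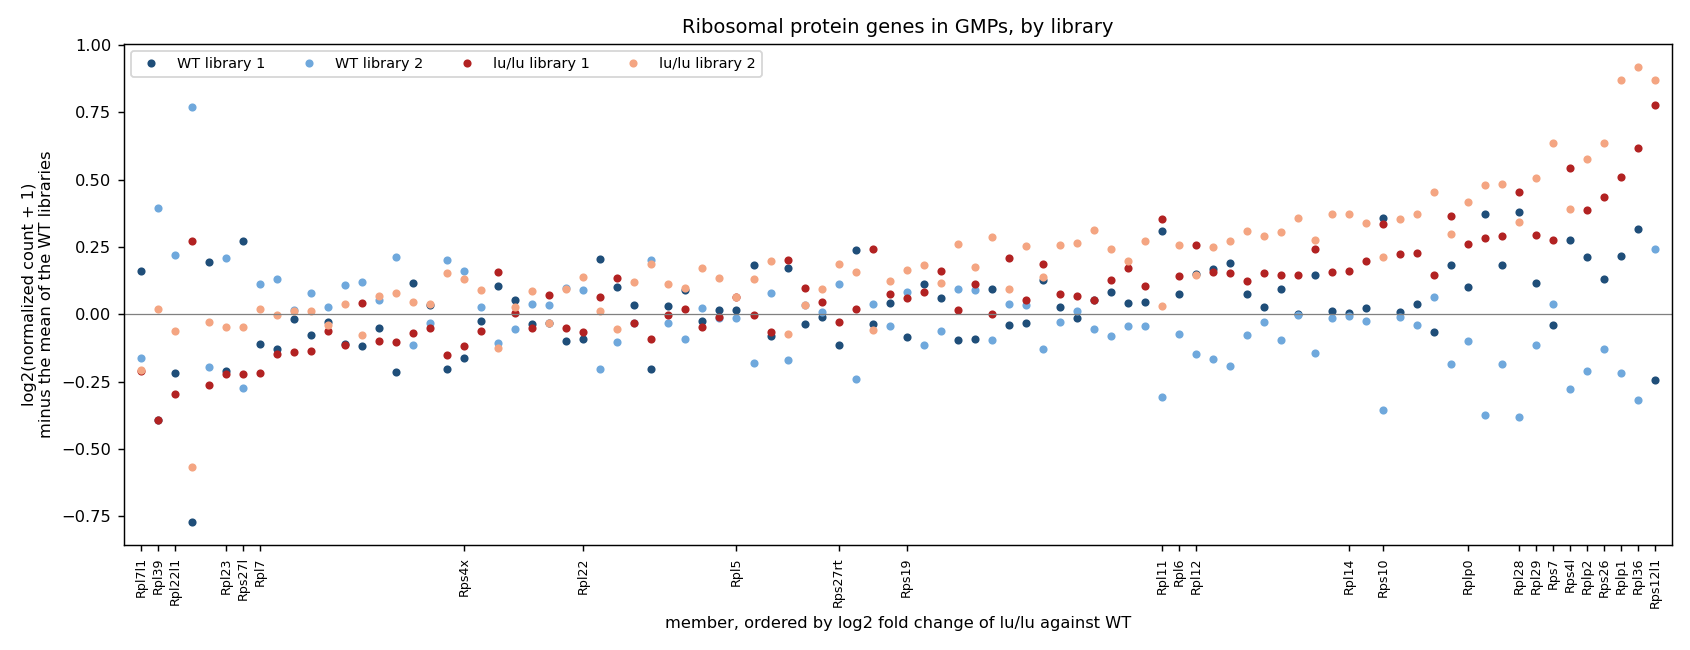
Each of the 90 members (x axis, ordered by log2 fold change, with some of the genes described named) in the 4 GMP libraries, as log2(normalized count + 1) minus the mean of the WT libraries (y axis), 1 point per library. Points of lu/lu library 2 were mostly the highest from the middle of the row rightwards, and WT library 2 was the lowest for many genes at the right end, such as Rpl36, Rpl28 and Rps10.

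The stalk genes had some of the largest differences. Rplp0, Rplp1 and Rplp2 encode the acidic proteins of the large subunit that recruit elongation factors. Rplp1 had 19628 and 14535 normalized counts in WT and 24053 and 30854 in lu/lu. Both lu/lu values lay above both WT values, with a log2 fold change of 0.69 ± 0.17 (SE, limma, adjusted p = 0.370) and a shared-date difference of 0.29. Rplp2 had 2882 and 2147 in WT and 3252 and 3715 in lu/lu (log2 fold change 0.48 ± 0.16, limma adjusted p = 0.430, shared date 0.17). Rplp0, the scaffold of the stalk, had 38006 and 33064 in WT and 42524 and 47394 in lu/lu (0.34 ± 0.13, limma adjusted p = 0.468, shared date 0.16). All 3 lay above in lu/lu, where 21.7% of all genes tested did, and in each WT library 2 was the lowest.

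Among the other members with high fold changes, Rpl36 had 784 and 503 normalized counts in WT and 964 and 1189 in lu/lu (log2 fold change 0.77 ± 0.22, limma adjusted p = 0.422, shared date 0.30). Rps7, a small subunit protein needed for processing of the 18S rRNA precursor, had 3814 and 4021 in WT and 4741 and 6095 in lu/lu (0.46 ± 0.14, limma adjusted p = 0.423, shared date 0.31). Its WT values lay close together, and lu/lu library 2 stood highest. Rpl29 of the large subunit had 4388 and 3740 in WT and 4968 and 5751 in lu/lu (0.40 ± 0.13, shared date 0.18). The copy Rps12l1 had the highest fold change of all members (0.82 ± 0.40), at 25.9 and 36.6 normalized counts in WT and 53.5 and 57.2 in lu/lu, and as it cannot be told from Rps12 by sequence its value is uncertain. Rps12 itself was at 0.066.

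A list of 10 genes known from Diamond-Blackfan anaemia or the 5q- syndrome was examined, which does not hold every gene reported in these disorders. It had 10 positive log2 fold changes with a median of 0.19 (0.048 at the shared date), and none passed the test. Of all 76 core genes 66 were positive. In 5 of them the lu/lu libraries lay above both WT libraries (Rps26, Rps7, Rps14, Rpl35a and Rpl5), as 21.7% of all genes tested did. Rps26, which lines the mRNA exit channel, had 4153 and 3469 in WT and 5140 and 5902 in lu/lu, a log2 fold change of 0.54 ± 0.13 (limma adjusted p = 0.370) and a shared-date difference of 0.31. Rps14, the gene of the 5q- syndrome, had 11068 and 10684 in WT and 12481 and 13755 in lu/lu (0.27 ± 0.11, limma adjusted p = 0.491, shared date 0.17). Rps19, the gene most often affected in Diamond-Blackfan anaemia, had 6477 and 7271 in WT and 7160 and 7689 in lu/lu, and the groups overlapped (0.11 ± 0.12).

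Rpl5 and Rpl11 bind the 5S rRNA and, when free, the p53 ligase Mdm2. Rpl5 had 3119 and 3056 in WT and 3226 and 3230 in lu/lu (0.064 ± 0.11), values that differed little in any library. Rpl11 had 672 and 438 in WT and 694 and 555 in lu/lu (0.19 ± 0.23), with WT library 2 the lowest. Rps10 had 1111 and 677 in WT and 1096 and 1005 in lu/lu (0.27 ± 0.22, shared date -0.019), so that its fold change rested on WT library 2: without it the value was -0.082. Rps24 and Rpl35a had log2 fold changes of 0.020 ± 0.12 and 0.18 ± 0.13.

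**Figure D3:**
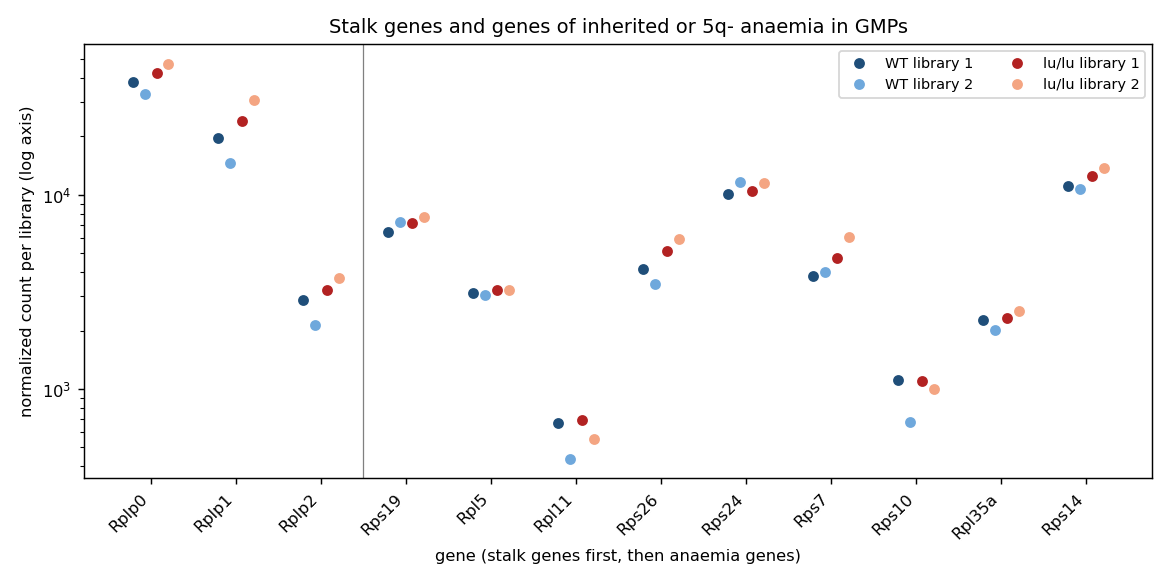
Normalized count per library (log axis) of the 3 stalk genes, left of the line, and of 9 of the 10 anaemia genes in GMPs, 1 point per library. In the stalk genes and in Rps26, Rps7 and Rps14 both lu/lu points lie above both WT points, as for Rplp1 with 14535 and 19628 in WT against 24053 and 30854 in lu/lu, and in Rps10 WT library 2 stands alone at 677.

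Of the members with the lowest fold changes, Rpl7l1, a relative of Rpl7 found on early precursors of the large subunit, had 7396 and 5918 normalized counts in WT and 5717 and 5737 in lu/lu (log2 fold change -0.21 ± 0.13, limma adjusted p = 0.607, shared date -0.37). Both of its lu/lu values lay under both WT values. Rpl39, at the exit tunnel of the large subunit, had 5389 and 9309 in WT and 5397 and 7172 in lu/lu (-0.19 ± 0.24, shared date 0.0024). Its WT libraries differed more from each other than the genotypes did. Rpl22l1, the paralog that Rpl22 can hold down by binding its RNA, had 1472 and 1994 in WT and 1396 and 1642 in lu/lu (-0.18 ± 0.17), while Rpl22 had 11143 and 12657 in WT and 11337 and 13063 in lu/lu (0.035 ± 0.13).

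The others at this end were Rps19bp1 (-0.15), Rpl3l (-0.15, near the filter and with overlapping values), Rpl23 (-0.14), Rps27l (-0.13) and Rpl7 (-0.099). Rps27l, a paralog of Rps27 induced by p53, had 3238 and 2213 in WT and 2297 and 2594 in lu/lu. Of the 6 paralogs 5 were negative, where 10 of 76 core genes were, but Rpl22l1, Rpl36al, Rpl3l and Rps27l turned positive when 1 library was left out (up to 0.041, 0.011, 0.62 and 0.14), and Rpl3l was at 1.04 at the shared date. Rpl7l1 lay below and Rps4l above, where 22.1% and 21.7% of all genes tested did, and the other 4 overlapped between genotypes. Rps4l was the positive one, with 176 and 120 in WT and 212 and 191 in lu/lu (0.47 ± 0.26, shared date 0.27), beside 0.0073 ± 0.15 for the X-linked Rps4x. For Rpl36a and Rpl36al the values were 0.065 and -0.064, and for Rpl10 0.020.

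Rpl12, Rpl14, Rpl28 and Rps14 are on the list of genes that the study assigned to PLZF-bound enhancers losing H3K27ac in 416b cells. All 4 were positive in lu/lu GMPs, where 66 of 76 core genes were (median log2 fold change 0.27, and 0.13 at the shared date). Rpl14 and Rps14 had both lu/lu libraries above both WT libraries, as 21.7% of all genes tested did, while Rpl12 and Rpl28 overlapped. Rpl28 had 856 and 504 in WT and 902 and 833 in lu/lu (0.40 ± 0.23, shared date 0.075), its groups overlapped, and without WT library 2 the value was 0.018. Rpl14 had 13490 and 13378 in WT and 15018 and 17390 in lu/lu (0.27 ± 0.12, shared date 0.15), and Rpl12 had 2254 and 1833 in WT and 2428 and 2250 in lu/lu (0.20 ± 0.14, and 0.052 without WT library 2). In 416b cells the log2 ratios of these 4 genes lay between -0.053 and 0.045. Rpl6, one of the reference transcripts of the study's RT-qPCR, had 11660 and 10525 in WT and 12230 and 13236 in lu/lu (0.20 ± 0.12, shared date 0.069). Both lu/lu values of Rpl6 lay above both WT values, as 21.7% of all genes tested did. How reads were divided between Rpl6 and its copy Rpl6l is uncertain, and their sum was at 0.082. In the study Rpl6 served to normalize Zbtb16 across compartments of immature blood cells.

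Lists of other genes of ribosome production and of its control were described beside the members. Ribosomal proteins with other symbols (Rpsa, Fau and Rack1 among them) were all positive, with a median of 0.19 over 4 genes, and Rpsa had 26793 and 26148 in WT and 30983 and 34162 in lu/lu. Of 30 ribosome biogenesis factors, which process rRNA and assemble subunits in the nucleolus, 28 were negative (median -0.21) and 18 had both lu/lu libraries below both WT libraries, where 22.1% of all genes tested did so. None passed the test. Nucleolin (Ncl) had 46328 and 46711 normalized counts in WT and 34597 and 34865 in lu/lu, a log2 fold change of -0.42 ± 0.11 (limma adjusted p = 0.390). At the shared date the median of these factors was -0.29.

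Of 11 genes of the RNA polymerase I machinery, which transcribes rRNA, 8 were negative (median -0.12) and 3 lay below in lu/lu, as 22.1% of all genes tested did. Of 20 elongation factors and other mRNAs with a pyrimidine start, 14 were negative (median -0.073). Eef2, the translocase of elongation, was among the 6 positive genes with 116129 and 105186 in WT and 130465 and 139877 in lu/lu (0.29 ± 0.13), while nucleophosmin (Npm1) had 19709 and 18105 in WT and 13474 and 15990 in lu/lu (-0.36 ± 0.13). Of 16 regulators of these mRNAs and of mTORC1, 11 were negative (median -0.11), with 13421 and 11444 in WT and 11076 and 9616 in lu/lu for Larp1, which binds the pyrimidine start (-0.26 ± 0.13). Of 16 DNA replication genes 10 were positive (median 0.12), but the median was -0.042 at the shared date and -0.0022 without WT library 2. No gene of these lists passed the test, and the lists are described by these counts alone.

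**Figure D4:**
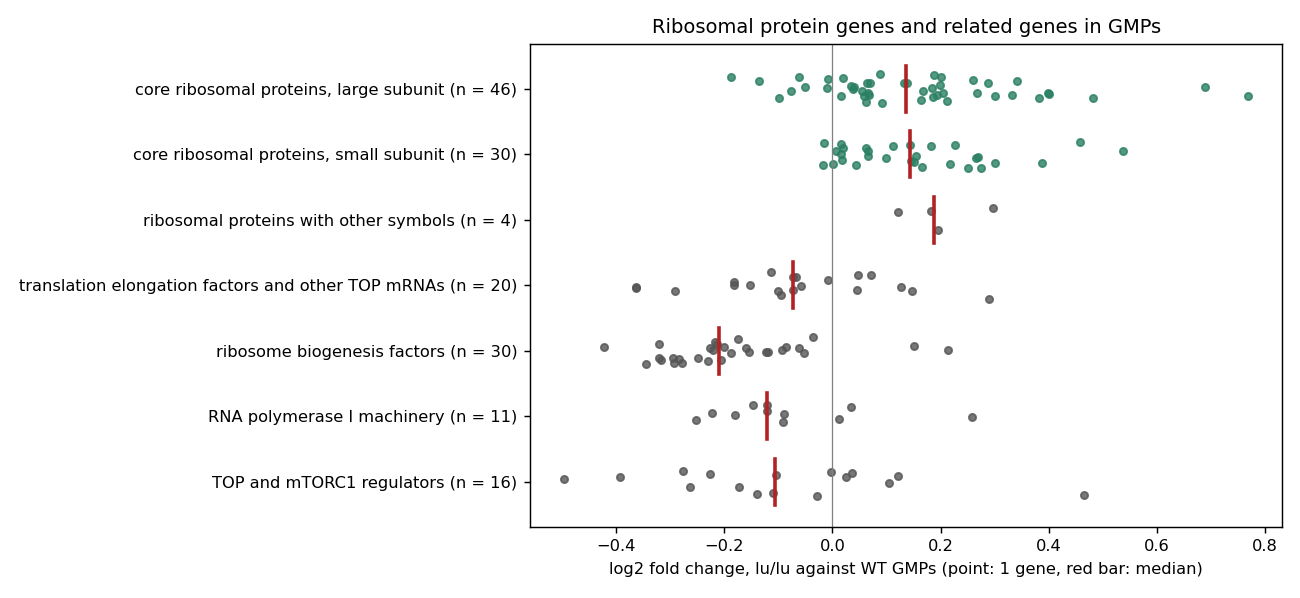
Log2 fold change of lu/lu against WT GMPs (x axis) for core ribosomal protein genes by subunit and for 5 lists of related genes, 1 point per gene (vertical scatter within a row carries no value), with the median as a red bar. Medians were 0.14 for each subunit and 0.19 for the ribosomal proteins with other symbols, and -0.21 for the ribosome biogenesis factors.

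In 416b cells the comparison asked which members differ where PLZF is gained. The members had nearly the same values in both conditions: the log2 ratio (PLZF-Flag over Empty vector) had a median of 0.0079 among 84 members (SD between members 0.12), with 48 positive and 36 negative. Among the 11836 genes whose 2 libraries averaged 10 or more, the median was -0.00014 (SD 0.27). With 1 library per condition no test between the conditions was possible. Each ratio has a 95% exact binomial interval from the reads of both libraries, which covers counting error only. A log2 ratio of at least 0.25 was found upward for 4 members (4.76%), where 6.58% of all genes had it, and downward for 2 (2.38%), where 9.72% of all genes had it.

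Of the 6 members past this size, 5 had at most 1155 reads in a library. In all 6 most 61-base windows of the transcript were found elsewhere in the genome, from 69.0% (Rpl11) to 99.6% (Rps27). How their reads were divided is thus uncertain, and the intervals do not cover this. Rps27a, which encodes ubiquitin fused to a small subunit protein, went from 661 normalized counts without PLZF-Flag to 844 with it, a log2 ratio of 0.35 whose interval was 0.20 to 0.51. In the same order, Rps27 had 146 and 186 (0.35, 0.027 to 0.69) and Rps27rt 115 and 139 (0.27, -0.12 to 0.65), so for Rps27rt a difference was not detectable at this depth. Rpl11 was the abundant one, with 13287 and 15832, from 21955 and 9581 reads (0.25, 0.22 to 0.29). Downward, Rps29 had 699 and 501 (-0.48, -0.67 to -0.30). Rpl17 had 189 and 157 (-0.27, -0.62 to 0.065), and its interval included 0.

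Next to these in size were Rps28 (0.23), Rpl23a (-0.19), Rps18 (0.18) and the copy Rpl32l (-0.18), and Rpl27a was at -0.099. The intervals of 28 members lay above 0, those of 23 below 0, and those of 33 included 0. At these depths intervals left out 0 for small differences too, as for Rpl8 with 106637 and 109737 normalized counts (0.041, 0.028 to 0.054). The stalk genes were at 0.070 for Rplp0, 0.021 for Rplp1 and 0.0080 for Rplp2, and the 10 anaemia genes had a median of -0.011. Of these, Rpl11 stood alone above 0.25, and the others lay between -0.057 and 0.054.

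**Figure D5:**
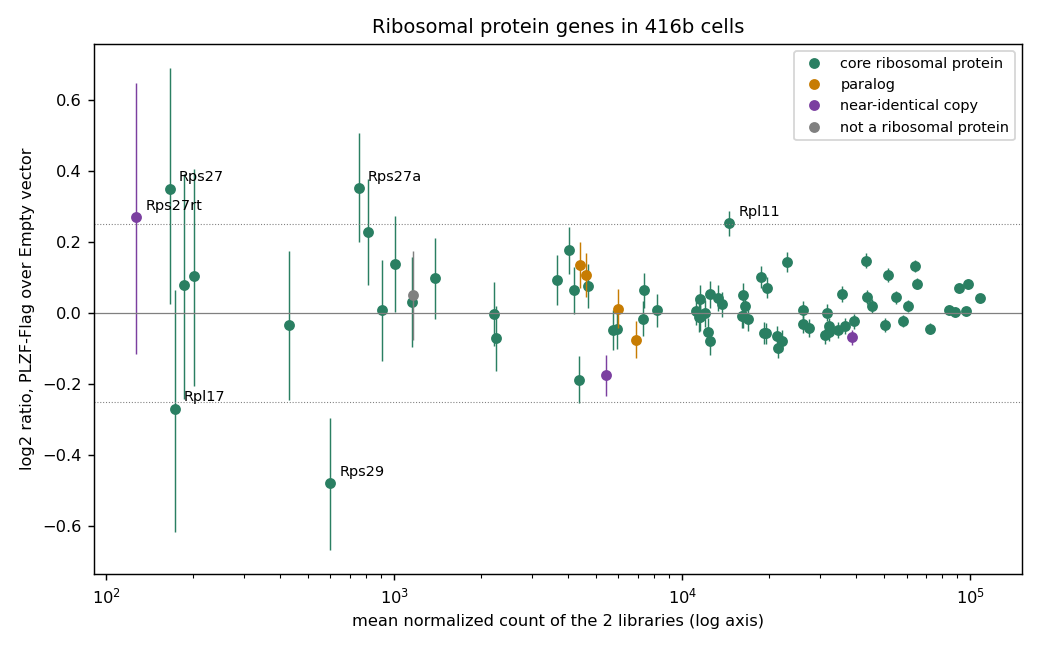
Log2 ratio, PLZF-Flag over Empty vector (y axis), against the mean normalized count (x axis, log axis) of the 84 members in 416b cells, with 95% exact binomial intervals from reads as vertical lines and dotted lines at 0.25 in each direction. The named genes are the 6 past a dotted line, and Rpl11 (0.25) is the one of them with a level above the other 5 by far, at 13287 and 15832 normalized counts.

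Values for the same genes in both systems stand side by side here. Rplp1, Rpl36, Rps26 and Rps7 had log2 fold changes of 0.69, 0.77, 0.54 and 0.46 in lu/lu GMPs and ratios of 0.021, 0.099, -0.043 and 0.039 in PLZF-Flag 416b cells. Across the 76 core genes the GMP log2 fold change and the 416b log2 ratio had a Pearson correlation of 0.089 (Spearman 0.21), as a description over genes. Of the biogenesis factors, 24 of 30 had a positive ratio in 416b cells (median 0.047), and none was past 0.25 in either direction.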

How the data were processed

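RNA-seq values of GMPs (2 libraries for each of WT and Zbtb16 lu/lu) and of 416b cells (1 library with PLZF-Flag and 1 with Empty vector) were used. In both tables the deposited values are signal values that the authors made by aligning reads to mm10 with Subread, counting them per gene with featureCounts (the submitters' processing notes give version 1.5.0) and dividing the counts by DESeq2 size factors. They are called normalized counts here. Columns in the 416b table that hold the authors' own comparison (fold changes and p-values) were not used, nor were ChIP-seq files of the series.

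In GMPs a gene was kept where 2 or more of the 4 libraries reached 10, and log2(value + 1) was compared between genotypes with limma 3.58.1 (R 4.3.3, intensity trend, Benjamini-Hochberg adjustment over all genes tested). The adjusted p threshold of 0.08 is the study's false discovery rate. A fold change is on the log2(value + 1) scale and understates that of low genes. The fit was tested on simulated data. In 416b cells 84.8% and 85.5% of the values were whole multiples of the worth of 1 read, within 0.01 of a read (75 and 77 of the 84 members). The others were rounded to whole reads, and intervals are 95% exact binomial (Clopper-Pearson, scipy 1.17.1) on the recovered reads. They cover counting error only. In each GMP library 100% of the values above 0 were whole multiples of 1 read, worth 0.964 to 1.03 normalized counts. No count model was fitted to these reads, so the GMP calls rest on limma alone.

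Gene models came from an mm10 (GRCm38) annotation, and starts and their sequence from RefSeq on GRCm38.p6. Members and gene lists were chosen with earlier results of these data known. The genes named are the 8 highest and 8 lowest members in GMPs, the 5 highest and 5 lowest in 416b cells, the 3 highest and 3 lowest per kilobase, the paralogs with the genes they copy, the stalk and anaemia genes, Rpl6, and the 4 genes on the study's enhancer list. A few genes that this rule names are not reported here. All other genes in the text were named after their values were seen. Alternatives were other pseudocounts, filters and scalings, each library left out, and the libraries of the shared date alone.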

Additional observations from a re-analysis of the deposited data

How the results depend on the processing

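The members' median log2 fold change in GMPs kept its sign under every alternative tried, from 0.051 (libraries of the shared date) to 0.16 (without lu/lu library 1). Leaving out each library in turn moved the number of members called by limma between 0 and 30, and the difference in share between 0.111 and 0.301 percentage points. With equal library totals 1 member, not 2, lay below in lu/lu. In the libraries of the shared date 58 of 90 members were positive, where 72 were with all libraries. The sign turned there for Rpl36a (-0.18), Rpl39 (0.0024), Rpl3l (1.04) and Rps10 (-0.019), among others. With quantile normalization it turned for Rps4x (-0.027), among others. Of the members named by the rule, these turned sign in log2 fold change with a library left out, within these ranges: Rpl10 -0.033 to 0.073, Rpl11 -0.12 to 0.50, Rpl22 -0.067 to 0.14, Rpl22l1 -0.40 to 0.041, Rpl23 -0.34 to 0.075, Rpl36a -0.12 to 0.25, Rpl36al -0.14 to 0.011, Rpl39 -0.58 to 0.21, Rpl3l -0.92 to 0.62, Rpl7 -0.22 to 0.021, Rps10 -0.082 to 0.63, Rps19bp1 -0.34 to 0.050, Rps24 -0.079 to 0.12, Rps27l -0.41 to 0.14, Rps27rt -0.033 to 0.19 and Rps4x -0.15 to 0.17. The median of the mature neutrophil list was 1.02 with a pseudocount of 10 and 0.88 with a mean of at least 100. Leaving out a library moved that median between 0.92 and 1.80, that of the monocyte and dendritic cell list between 0.28 and 0.57, that of cells outside the gate between -0.68 and 0.032, that of ribosome biogenesis factors between -0.34 and -0.088, and that of DNA replication genes between -0.0022 and 0.16. At the shared date the median of the DNA replication genes was -0.042 and that of the mature neutrophil list 0.58. The cause of these shifts was not tested.

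No paired analysis was possible because only WT library 1 and lu/lu library 1 share a date, which leaves 1 pair. With 2 libraries against 2 the permutation test cannot go below 0.3333. When a library is left out, the lone one is assumed to vary like the other genotype. In 416b cells 1 library per condition allows no test.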

Other observations

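Members with the searched pyrimidine letters near the start (27 in GMPs) had a median log2 fold change of 0.15 in lu/lu GMPs. Those with a matched start and without these letters (38) had a median of 0.064. At the shared date these medians were 0.046 and 0.048. Core genes with under 10% of windows repeated elsewhere had a median of 0.17, with 8 of 8 positive, and those with at least 50% repeated had a median of 0.099, with 33 of 37 positive. At the shared date these were 0.054 and 0.046. These splits were chosen after the sequences were seen and were not tested.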
